A study of Mus musculus with 4 samples.

Results

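The annexin, S100 and galectin genes ANXA1, ANXA2, ANXA5, ANXA6, S100A4, S100A6, S100A10, S100A11, LGALS1 and LGALS3 were followed in human leukocytes of humanised mice. These 10 genes were taken by name from the 33538 human genes in the files, and their unique molecular identifiers (UMIs, each counting 1 captured RNA molecule) were read only from barcodes with over 50% of UMIs on human genes. The study engrafted irradiated immunodeficient NSG-SGM3 mice with human CD34+ cord blood cells (huNSG-SGM3 mice) and sequenced live human CD45+ cells on the 10x Chromium platform, to compare the systemic and the local response of human immune cells to spinal cord injury (SCI). There were 4 libraries, 1 per condition, each made from pooled animals. All hosts were NOD.Cg-Prkdcscid mice with the IL2rgtm1Wjl allele and the transgene Tg(CMV-IL3,CSF2,KITLG)1Eav (MloySzJ), in which human IL3, CSF2 and KITLG run from the CMV promoter. Their labelled age was 15 weeks, which the study's methods give as the time from engraftment to surgery. Naïve blood came from untreated male mice, and sham blood from male mice that had a laminectomy at T9. SCI blood and SCI cord came from male and female mice with a T9 spinal cord injury, and all operated mice were sampled 7 days after surgery. Host sex therefore cannot be told apart from injury, nor can the blood and cord compartments be told apart from their preparation, since cord was digested with papain at body temperature and enriched on magnetic beads whereas blood went through red cell lysis. Such hosts hold few human innate cells beside their lymphocytes.

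Annexins are cytosolic proteins that bind membrane phospholipids when calcium rises, and take part in membrane repair, vesicle traffic and, for ANXA1, the damping of inflammation through formyl peptide receptors. S100 proteins are small EF-hand calcium sensors that act on annexins and the cytoskeleton, and several are released as extracellular signals. Galectins are lectins that recognise β-galactosides on surface glycoproteins such as CD45 and CD7, and galectin-1 and galectin-3 are known for setting the survival and signalling threshold of T cells. In human T cells many of these genes are low in naive cells and higher in memory, effector and regulatory cells.

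After filters, 6324 naïve, 4645 sham, 5934 SCI blood and 118 SCI cord human cells were kept, at median depths of 3697.5, 5230, 4655 and 9331 UMIs. The cells fell into 14 clusters, which were grouped into 12 classes named by their markers with "-like", and the 10 genes were left out of the clustering. Levels are in CPM, the UMIs of a gene summed over a class and scaled to a class total of 1000000, with ribosomal and mitochondrial genes left out of the total. T-like cells in 6 classes made up 66.9%, 79.4%, 78.2% and 56.8% of the 4 libraries, and their general T markers summed to between 6285 and 7568 CPM. The cytotoxic T-like class was also led by an NK cell gene, and 383 of the 388 plasma-like cells were from naïve blood. ANXA2 and S100A11 have processed pseudogenes of near-identical sequence, and how reads shared with such copies were counted is not given in the sources used here, so their levels are uncertain to that extent. Of 38 barcodes found in more than 1 library, 21 were among the cells kept. With 1 library per condition there was no replicate and no test: intervals are exact 95% intervals that cover counting error only, and a difference between libraries may be a difference between pools of animals. A gene was called higher or lower where its CPM differed by at least 1.5-fold, and the share of all genes passing the same rule is given as the background.

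Across the classes of blood cells, the 10 genes did not share 1 pattern. Monocyte-like cells had the top level of ANXA2, S100A4, S100A6, S100A10 and LGALS3, basophil or mast-like cells that of ANXA1, S100A11 and LGALS1, cycling-like cells that of ANXA5 and CD4 T-like cells that of ANXA6. Levels are given as the median over the 3 blood libraries, with the lowest and highest library. Only classes with at least 10 cells in each of the 3 blood libraries were ranked, so plasma-like and eosinophil-like cells are not in the order.

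**Figure D1:**
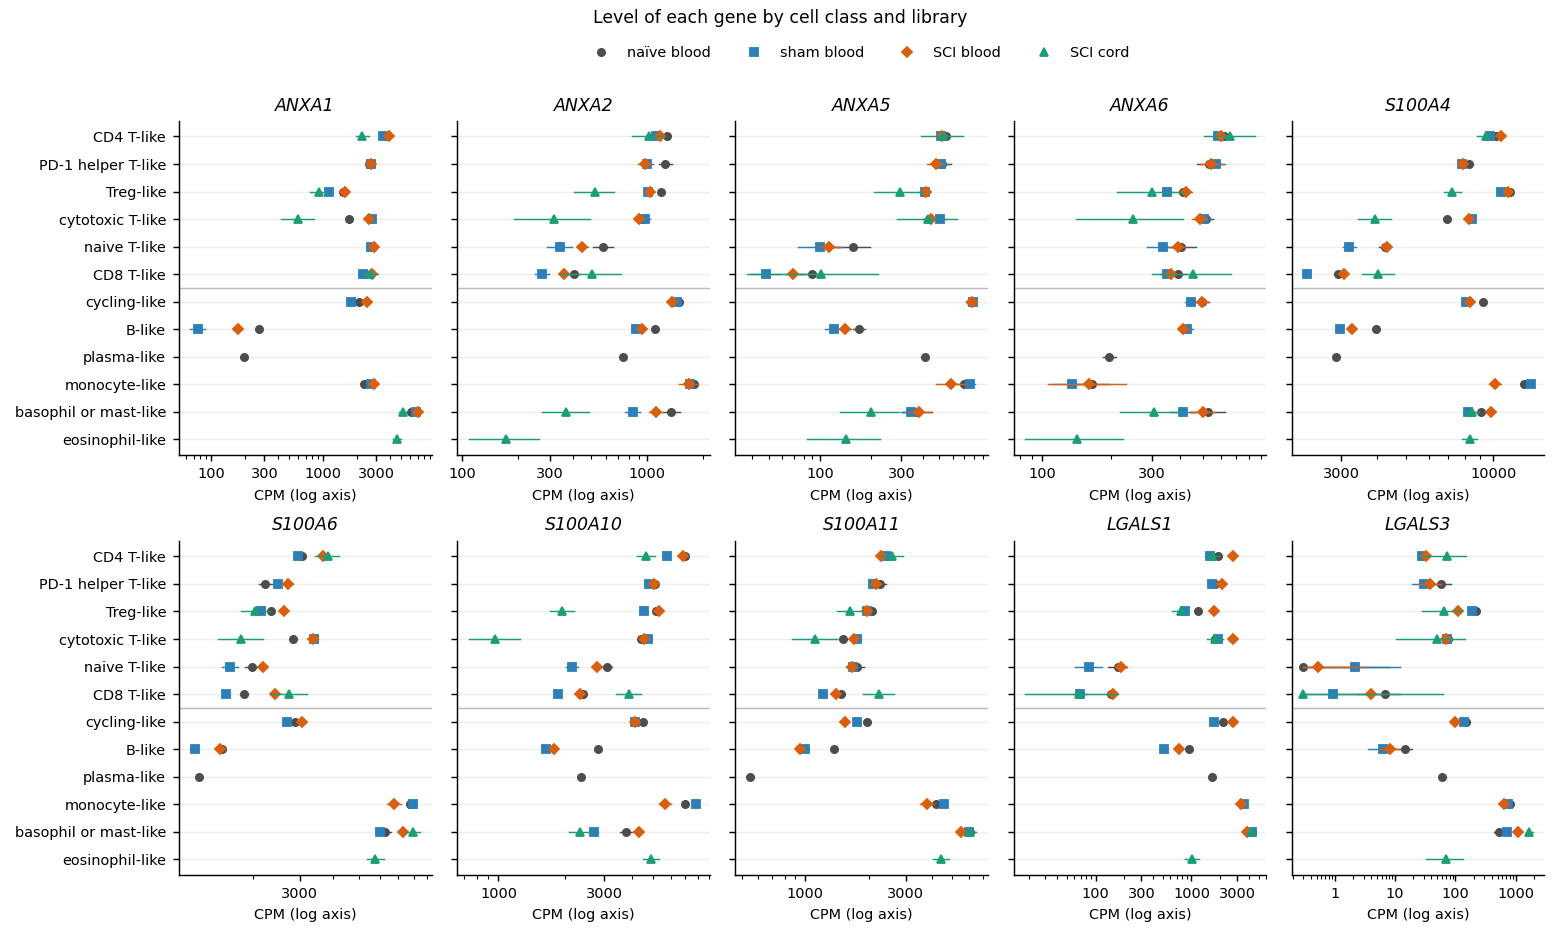
Level of each gene (x axis, CPM on a log axis) in each class with at least 10 cells (y axis), with a marker per library and bars for exact 95% counting intervals; values under 0.3 CPM are drawn at 0.3, and the grey line parts the 6 T-like classes from the rest. LGALS1 was at most 186 CPM in naive T-like and CD8 T-like cells of every blood library, and ANXA1 at most 269 CPM in B-like cells.

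Of the annexins, ANXA1 (annexin A1, the ligand of formyl peptide receptors) had the widest span over classes. It stood at 6722 CPM (6100 to 7109) in basophil or mast-like cells and 173 CPM (76.2 to 269) in B-like cells. With all marked doublets removed, B-like cells were lower still, at 123, 75.0 and 85.1 CPM in naïve, sham and SCI blood. CD4 T-like cells followed at 3685 CPM (3453 to 3881), above every other T-like class in all 3 libraries, while Treg-like cells, led by FOXP3, were the lowest T-like class at 1507 CPM (1129 to 1572). Naive T-like, PD-1 helper T-like, cytotoxic T-like, CD8 T-like and monocyte-like cells lay in between with overlapping ranges. ANXA2, a membrane scaffold that pairs with S100A10, was at 1704 CPM (1676 to 1796) in monocyte-like cells, against 447 CPM (338 to 578) in naive T-like and 356 CPM (271 to 403) in CD8 T-like cells, which were the 2 lowest classes. ANXA5, whose protein binds exposed phosphatidylserine, spanned 11.2-fold, from 782 CPM (764 to 790) in cycling-like to 69.6 CPM (48.3 to 89.4) in CD8 T-like cells. ANXA6, a large annexin of the plasma membrane and endosomes, was highest in CD4 T-like cells at 603 CPM (586 to 619) and, unlike ANXA2 and ANXA5, lowest in monocyte-like cells at 160 CPM (135 to 164), with CD8 T-like cells next at 365 CPM (350 to 392).

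The S100 genes were highest in the myeloid classes. S100A4, which binds non-muscle myosin, reached 12735 CPM (10126 to 13431) in monocyte-like cells and 11221 CPM (10649 to 11376) in Treg-like cells, and these ranges overlapped. Of the classes ranked, CD8 T-like cells were again at the bottom with 2931 CPM (2289 to 3075). S100A6 (calcyclin) stood at 7739 CPM (6756 to 7936) in monocyte-like and 6260 CPM (5986 to 7299) in basophil or mast-like cells, and no T-like class passed 3657 CPM in any blood library. S100A10, which lacks calcium binding and holds ANXA2 in a tetramer, did not differ beyond the library ranges between CD4 T-like (6826 CPM, 5806 to 6990) and monocyte-like cells (6962 CPM, 5690 to 7817). S100A11, a partner of ANXA1, was highest in basophil or mast-like cells at 5992 CPM (5491 to 6063). It was lowest, of the classes ranked, in B-like cells at 1001 CPM (949 to 1371).

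The galectins divided the T-like classes most sharply. LGALS1 (galectin-1) was at 1900 CPM (1741 to 2736) in cytotoxic T-like and 1898 CPM (1543 to 2741) in CD4 T-like cells but at 145 CPM (68.8 to 153) in CD8 T-like and 170 CPM (85.4 to 186) in naive T-like cells, a 13.1-fold span within T-like cells. The top level was in basophil or mast-like cells, at 4245 CPM (3834 to 4279). LGALS3 (galectin-3) was a gene of monocyte-like cells, at 759 CPM (650 to 807), and basophil or mast-like cells, at 720 CPM (521 to 1110). Among T-like cells it was highest in Treg-like cells, at 188 CPM (111 to 217), against 28.2 CPM (27.8 to 32.2) in CD4 T-like and 4 CPM (0.929 to 6.88) in CD8 T-like cells. Naive T-like cells held 0, 1 and 1 UMIs of LGALS3 in naïve, sham and SCI blood.

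Set class against class within a library, naive T-like cells were lower than CD4 T-like cells for all 10 genes in each blood library, with median log2 ratios of -1.16, -1.52 and -1.30 in naïve, sham and SCI blood. B-like cells were below T-like cells for most genes, with medians of -0.85, -1.32 and -1.12, but ANXA2 in SCI blood was higher in B-like cells (0.23, 0.17 to 0.28). Monocyte-like cells were above T-like cells for 8, 9 and 8 of the 10 genes, with medians of 0.75, 0.89 and 0.95, and below them for ANXA6, at -1.63, -1.81 and -1.53. The other gene below was ANXA1, at -0.17 (-0.24 to -0.10) in naïve and -0.04 (-0.17 to 0.09) in SCI blood. CD8 T-like cells differed less from naive T-like cells, at -0.24, -0.32 and -0.25.

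Between the blood libraries, most of the 10 genes differed by less than 1.5-fold, and the calls that passed were of LGALS3. In all cells, none of the 10 genes was called between sham and naïve blood, where 6.67% of all genes were higher and 6.08% lower. Between SCI and naïve blood, 0 of 10 were higher (background 8.68%) and 1 of 10 lower (background 8.51%). Between SCI and sham blood, 0 of 10 were higher (5.71%) and 1 of 10 lower (6.88%). The called gene was LGALS3 both times. The median log2 ratios over the 10 genes were 0.13, 0.00 and -0.11, beside 0.07, 0.07 and 0.01 over all genes. In T-like cells alone, 0 of 10 genes were called between sham and naïve blood (background 3.25% higher, 4.91% lower). LGALS3 was again the 1 gene lower in SCI than in naïve blood (background 6.33%) and than in sham blood (5.04%), and none was higher (6.39% and 6.32%). The T-like medians were -0.08, -0.19 and -0.07, beside -0.03, -0.02 and 0.01 over all genes. At 1 of 10 or none, the genes called were near the background share in each comparison. The comparisons share libraries and are not independent of each other.

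**Figure D2:**
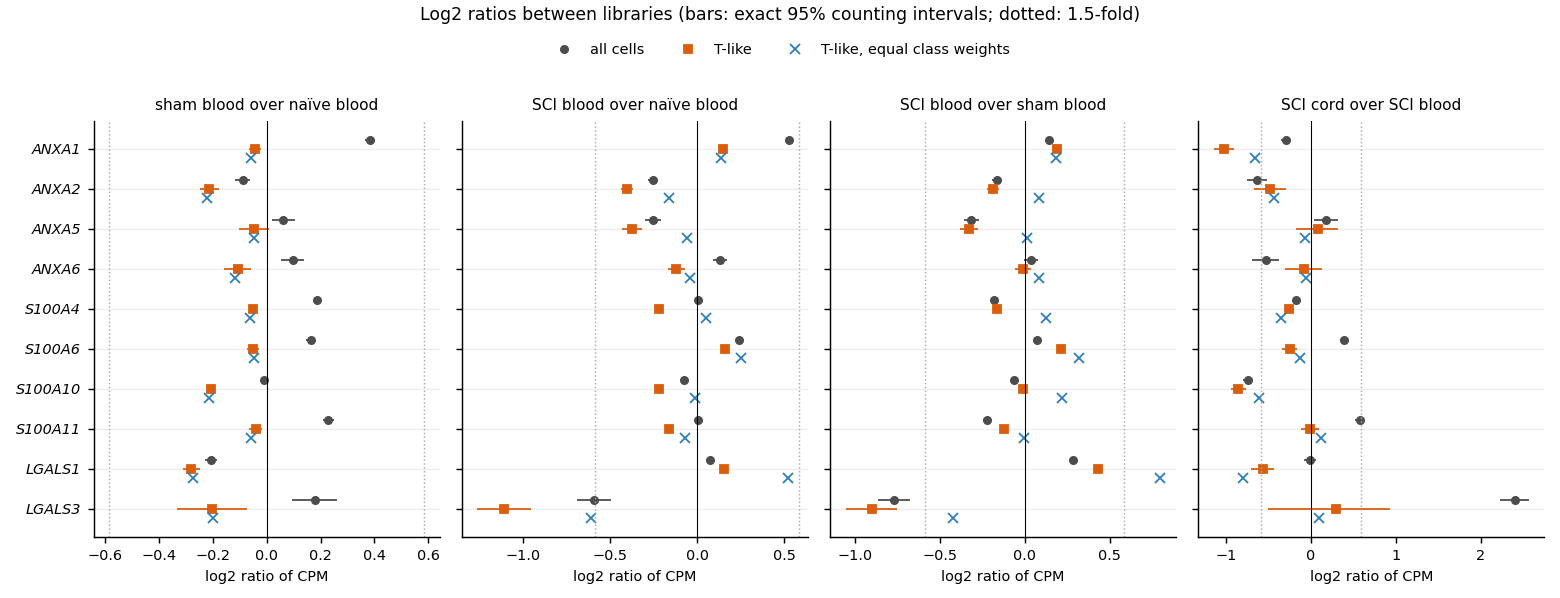
Log2 ratio of CPM (x axis) of each gene (y axis) between libraries, for all cells, T-like cells and T-like cells with each class given the same weight in both libraries; bars are exact 95% counting intervals and dotted lines mark 1.5-fold. LGALS1 in SCI over sham blood moved from 0.43 in T-like cells to 0.80 with equal class weights, and LGALS3 in SCI cord over SCI blood was 2.40 in all cells.

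The makeup of the T-like cells differed between libraries. CD8 T-like cells were 10.4%, 13.2%, 24.3% and 8.47% of naïve, sham, SCI blood and SCI cord cells, naive T-like cells 2.85%, 2.63%, 9.93% and 1.69%, and Treg-like cells 17.8%, 23.3%, 12.2% and 14.4%. Because CD8 and naive T-like cells had the lowest LGALS1, ANXA2 and ANXA5 of all T-like classes, each comparison was also made within classes.

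LGALS1 was higher in SCI than in sham blood in every T-like class. In CD4 T-like cells it was at 1898, 1543 and 2741 CPM in naïve, sham and SCI blood, so that SCI was the highest and sham the lowest. In Treg-like cells the 3 values were 1172, 848 and 1696 CPM, in the same order. The log2 ratio of SCI over sham blood was 0.83 (0.79 to 0.87) in CD4 T-like, 1.00 (0.93 to 1.07) in Treg-like, 0.53 (0.45 to 0.60) in cytotoxic T-like and 0.37 (0.25 to 0.48) in PD-1 helper T-like cells. CD8 T-like cells, at 145, 68.8 and 153 CPM, gave 1.15 (0.89 to 1.42), and naive T-like cells, at 170, 85.4 and 186 CPM, gave 1.10 (0.65 to 1.63). The interval was above 0 in all 6 T-like classes, as it was for 0.393% of the 7124 genes with enough counts in all 6, and the ratio alone was above 0 in all 6 for 4.45% of them. LGALS1 was the only one of the 9 of these genes that could be followed in all 6 classes to meet either rule. Cycling-like (0.66) and B-like cells (0.53) were also higher in SCI than in sham blood, while monocyte-like (-0.11) and basophil or mast-like cells (-0.15) were not. The B-like ratios of LGALS1 include a cluster of 112 cells, 99.1% of them marked doublets. Of these cells 81 were from naïve, 1 from sham and 30 from SCI blood.

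Against naïve blood the excess of LGALS1 in SCI blood was smaller, at 0.53 (0.49 to 0.57) in CD4 T-like, 0.53 (0.47 to 0.60) in Treg-like, 0.65 (0.58 to 0.73) in cytotoxic T-like and 0.26 (0.13 to 0.38) in PD-1 helper T-like cells. In naive T-like (0.12, -0.23 to 0.50) and CD8 T-like cells (0.07, -0.14 to 0.30) the interval held 0, and in B-like cells SCI blood was the lower library (-0.33, -0.40 to -0.25). In sham blood LGALS1 was below naïve blood in 5 of the 6 T-like classes, down to -1.07 (-1.38 to -0.77) in CD8 T-like cells, and above it only in cytotoxic T-like cells (0.13, 0.05 to 0.21). In the T-like pool these differences were 0.43 for SCI over sham and 0.15 for SCI over naïve blood, and with equal class weights they were 0.80 and 0.52. Thinned to 1000 UMIs per cell, 49.2% (45.5 to 52.9) of Treg-like cells in SCI blood had a LGALS1 UMI. In naïve blood the share was 39.1% (36.2 to 42.0), and in sham blood it was 33.9% (31.0 to 36.8). Without thinning the shares were 73.6%, 60.7% and 60.2% at median depths of 3832.5, 2993 and 3996 UMIs, and B-like cells had thinned shares of 26.1%, 32.6% and 20.0% in the same libraries.

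**Figure D3:**
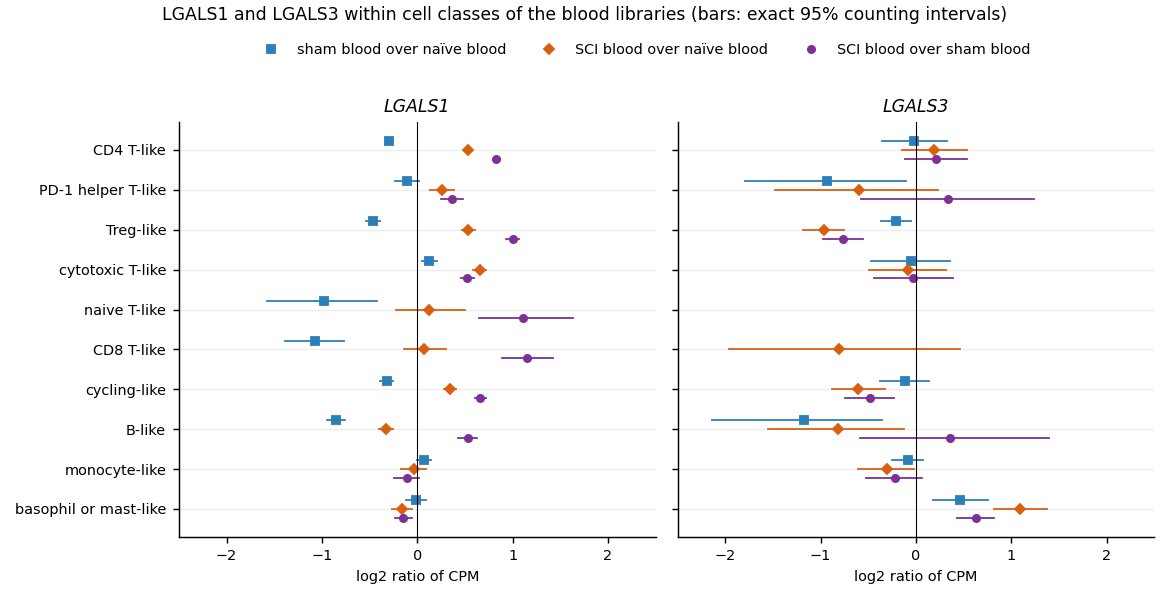
Log2 ratio of CPM (x axis) of LGALS1 and LGALS3 in each class (y axis) for the 3 comparisons among blood libraries, with exact 95% counting intervals; classes with fewer than 20 UMIs over both libraries have no point. SCI over sham blood for LGALS1 lies above 0 in all 6 T-like classes, and LGALS3 in Treg-like cells lies below 0 in SCI blood against both other libraries.

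LGALS3 was lower in SCI blood, and among T-like classes the interval lay below 0 only in Treg-like cells. The T-like pool held 78.5, 68.1 and 36.5 CPM in naïve, sham and SCI blood, with SCI blood lowest. The log2 ratio was -1.11 (-1.26 to -0.95) against naïve and -0.90 (-1.05 to -0.75) against sham blood, at percentiles 1.6 and 2.3 of all genes. With equal class weights it was -0.61 and -0.42, of which the second no longer reached 1.5-fold. In Treg-like cells the levels were 217, 188 and 111 CPM, from 629, 696 and 261 UMIs, and the ratio of SCI blood was -0.97 (-1.18 to -0.76) against naïve and -0.76 (-0.97 to -0.56) against sham blood. The thinned share of Treg-like cells with a LGALS3 UMI was 11.1% (9.33 to 13.1), 11.8% (9.97 to 13.9) and 5.79% (4.20 to 7.74), unthinned 26.6%, 28.4% and 19.0%. In B-like cells, at median depths of 3671, 5653 and 4975 UMIs, the thinned share was 0.706%, 0.351% and 0.745%.

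The lower level of LGALS3 was seen on both sides of a finer division of Treg-like cells, chosen after their values were seen. The sub-cluster led by FOXP3, CTLA4 and IL2RA, genes of activated regulatory T cells, was at 360, 312 and 174 CPM in naïve, sham and SCI blood. The other, led by PTGIR, FANK1 and FOXP3, was at 117, 106 and 52.4 CPM and held 61.5%, 63.5% and 53.3% of the class. The 8 monocyte markers summed to 19.3, 19.1 and 11.9 CPM in Treg-like cells, with CSF1R at 0 in each library and CD14 at 0 in naïve and sham blood, and with all marked doublets removed the ratio was -0.92 against naïve and -0.74 against sham blood. CD4 T-like cells were at 28.2, 27.8 and 32.2 CPM, and cytotoxic T-like cells at 75.4, 72.4 and 70.9 CPM. In both classes SCI blood lay close to the other libraries and every interval held 0. PD-1 helper T-like cells, at 58.2, 30.3 and 38.1 CPM from 30, 23 and 22 UMIs, gave -0.60 (-1.47 to 0.23) against naïve and 0.33 (-0.58 to 1.24) against sham blood. CD8 T-like cells, with 11, 2 and 17 UMIs, gave -0.80 (-1.96 to 0.46) against naïve blood and too few UMIs for sham blood. Both ratios against naïve blood passed 1.5-fold, and both intervals held 0. In basophil or mast-like cells LGALS3 was higher in SCI blood, at 521, 720 and 1110 CPM, a ratio of 1.09 (0.82 to 1.37) against naïve and 0.62 (0.43 to 0.82) against sham blood. In monocyte-like cells it was at 807, 759 and 650 CPM, and there were 140, 90 and 18 of these cells. The level in all cells was 101, 114 and 66.7 CPM, highest in sham and lowest in SCI blood, and the part of the number of monocyte-like cells in it was not tested. With each class given the same weight in both libraries, its mean share of their cells, the all-cell ratio of SCI blood was -0.21 against naïve and -0.10 against sham blood.

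The 10x reference joined human and mouse genomes, and mouse Lgals3 made up 0.98%, 16.4%, 21.9% and 14.3% of the LGALS3 and Lgals3 UMIs together in T-like barcodes of naïve, sham, SCI blood and SCI cord. The converse, human LGALS3 in mouse barcodes, was 5.88%, 0.107%, 0.0845% and 0.0580% of the pair in naïve, sham, SCI blood and SCI cord, from 4, 6, 2 and 2 human UMIs. For the other genes the mouse share in T-like barcodes stayed at or below 2.27%.

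Of the S100 genes, S100A6 was higher in SCI than in naïve blood in every T-like class. In CD8 T-like cells it was at 1863, 1590 and 2424 CPM in naïve, sham and SCI blood, and in CD4 T-like cells at 3059, 2953 and 3657 CPM. SCI blood was the highest library in both. The log2 ratio of SCI over naïve blood ran from 0.13 (0.03 to 0.24) in naive T-like to 0.38 (0.32 to 0.44) in CD8 T-like cells, with the interval above 0 in all 6 classes, which held for 0.573% of 6636 genes. Against sham blood it was above 0 in 5 classes, up to 0.61 (0.55 to 0.66) in CD8 T-like cells, and at -0.01 (-0.07 to 0.05) in cytotoxic T-like cells. In monocyte-like cells S100A6 went the other way, at -0.20 (-0.29 to -0.11) against naïve blood. None of these reached 1.5-fold except CD8 T-like cells against sham blood.

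Against naïve blood, S100A4, S100A10 and S100A11 showed no such common direction. S100A4 in T-like cells was at 8767, 8453 and 7537 CPM, lowest in SCI blood, but within classes SCI over naïve blood ran only from -0.07 in PD-1 helper T-like to 0.25 (0.21 to 0.29) in cytotoxic T-like cells, and equal class weights gave 0.05 in place of -0.22. S100A10 gave -0.22 in the T-like pool and -0.01 with equal weights. S100A11 gave -0.16 and -0.07. Against sham blood, S100A4 and S100A10 were above 0 in 5 of the 6 T-like classes, like S100A6, with the interval above 0 in 4 classes each. S100A4 reached 0.43 in naive T-like and CD8 T-like cells, S100A10 reached 0.37 (0.27 to 0.47) in naive T-like cells, and both were slightly below 0 in cytotoxic T-like cells. With equal class weights they gave 0.12 and 0.22, and S100A11 was above 0 in 2 classes. In basophil or mast-like cells S100A10 was at 3784, 2690 and 4315 CPM, with SCI over sham blood at 0.68 (0.58 to 0.78), and in monocyte-like cells at 6962, 7817 and 5690 CPM, with -0.46 (-0.56 to -0.36).

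Of the annexins, ANXA1 was above naïve blood in SCI blood in all 6 T-like classes and ANXA2 below it in all 6. A ratio above 0 in all 6 classes was met by 3 of 9 genes, ANXA1, S100A6 and LGALS1, against 4.9% of all genes, and a ratio below 0 by 1 of 9, against 9.48%. For ANXA1 the interval was above 0 in 3 classes, and the ratio was 0.60 (0.52 to 0.67) in cytotoxic T-like cells, which were at 1714, 2761 and 2595 CPM, naïve blood being lowest and sham and SCI blood close together. CD8 T-like cells gave 0.19 (0.14 to 0.25) and CD4 T-like cells 0.07 (0.04 to 0.10). Treg-like cells were at 1507, 1129 and 1572 CPM, sham blood being lowest. For ANXA2 the ratio ran from -0.37 (-0.57 to -0.17) in naive T-like to -0.07 (-0.18 to 0.04) in cytotoxic T-like cells, but sham blood was below naïve blood too, at -0.77 (-1.07 to -0.49) in naive T-like and -0.57 (-0.74 to -0.41) in CD8 T-like cells. In the T-like pool ANXA2 was at 1066, 920 and 807 CPM. ANXA5 in T-like cells, at 418, 405 and 323 CPM, gave -0.37 (-0.43 to -0.32) against naïve blood and -0.06 with equal class weights. ANXA6, at 511, 474 and 471 CPM, gave -0.12 (-0.17 to -0.07) and -0.04.

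ANXA1 in B-like cells stood apart between libraries, at 269, 76.2 and 173 CPM from 970, 183 and 576 UMIs, with sham over naïve blood at -1.82 (-2.06 to -1.59). A B-like cluster of 112 cells, 81 from naïve, 1 from sham and 30 from SCI blood, consisted to 99.1% of marked doublets. With all marked doublets removed the levels were 123, 75.0 and 85.1 CPM, and the ratio was -0.71 (-0.97 to -0.45) for sham and -0.53 (-0.76 to -0.30) for SCI over naïve blood. SCI over sham blood, 1.18 (0.94 to 1.43) before, was then 0.18 (-0.10 to 0.47).

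In the injured cord, the human cell classes had other shares than in blood, with fewer T-like and more myeloid cells. Basophil or mast-like cells were 12.7% of cord cells against 2.21% of SCI blood cells, monocyte-like cells 5.93% against 0.303%, and eosinophil-like cells were 13 of 118 cells against 6 of 5934. Of 10 genes, LGALS3 alone was called higher in all cord cells (background 22.1%) and ANXA2 and S100A10 were called lower (background 17.8%). LGALS3 was at 66.7 CPM in SCI blood and 352 CPM in SCI cord, a ratio of 2.40 (2.23 to 2.57). T-like cells held 39.2% of its UMIs in SCI blood but 4.81% in SCI cord, where basophil or mast-like cells held 59.1% and monocyte-like cells 23.3%. With equal class weights the ratio was 0.50, where the median of all genes was 0.46. Equal class weights here cover only CD4 T-like, CD8 T-like, Treg-like, cytotoxic T-like and basophil or mast-like cells. The other classes, monocyte-like and eosinophil-like among them, had fewer than 10 cells in at least 1 of the libraries and were left out. Within basophil or mast-like cells, LGALS3 was at 1110 CPM in SCI blood and 1692 CPM in 15 cord cells (0.61, 0.37 to 0.84). ANXA2 and S100A10 were at -0.63 and -0.74 in all cells and at -0.54 and -0.62 with equal class weights. ANXA1, at 2536 and 2068 CPM in all cells, had 30.7% of its cord UMIs in basophil or mast-like and 26.7% in eosinophil-like cells, which together were 28 cells.

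**Figure D4:**
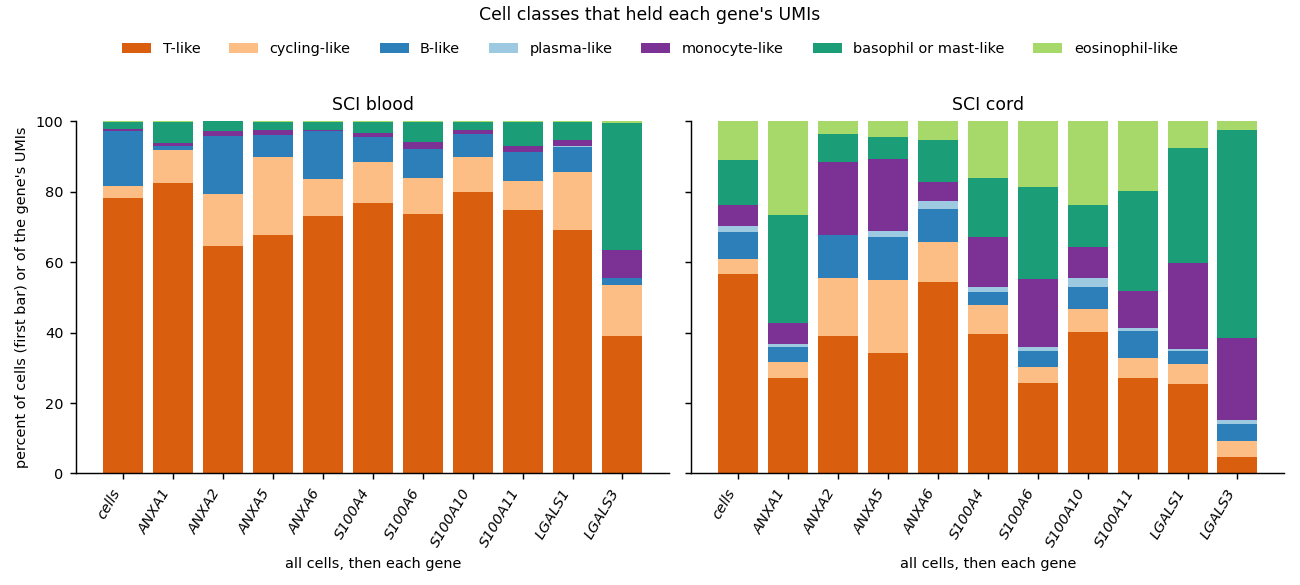
Percent of cells (the first bar) and of each gene's UMIs (y axis) in each class, for SCI blood and SCI cord. T-like cells held most of the UMIs of 9 of the 10 genes in SCI blood. In SCI cord, basophil or mast-like, eosinophil-like and monocyte-like cells together held most of the UMIs of several genes, LGALS3, ANXA1 and S100A6 among them.

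Within T-like cells, cord levels of ANXA1 and S100A10 were lower than in SCI blood. ANXA1 was at 2915 CPM in SCI blood and 1435 CPM in SCI cord from 593 UMIs, a ratio of -1.02 (-1.14 to -0.91), and S100A10 at 4590 and 2540 CPM, a ratio of -0.85 (-0.94 to -0.77). These were the 2 of 10 genes called lower (background 15.2%), and none was called higher (background 21.7%). The median over the 10 genes was -0.25, beside 0.04 over all genes. LGALS1 was at 1532 and 1033 CPM (-0.57, -0.71 to -0.43), ANXA2 at 807 and 578 CPM (-0.48, -0.67 to -0.30), and S100A11 at 1859 and 1846 CPM (-0.01, -0.12 to 0.09). Of cord T-like cells, 49.3% (36.8 to 61.8) had an ANXA1 UMI when thinned, against 73.2% (71.9 to 74.5) in SCI blood, and 82.1% against 92.9% unthinned.

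The difference was not shared by all T-like classes, of which 4 had at least 10 cord cells. In 17 CD4 T-like cells ANXA1 was at 2248 CPM against 3881 CPM in SCI blood (-0.78, -0.99 to -0.59), in 17 Treg-like cells at 923 against 1572 CPM (-0.76, -1.05 to -0.50), and in 12 cytotoxic T-like cells at 599 against 2595 CPM (-2.10, -2.63 to -1.64). In 10 CD8 T-like cells it was at 2627 against 2722 CPM (-0.05, -0.29 to 0.18). S100A10 was lower in cytotoxic T-like (-2.23, -2.64 to -1.87), Treg-like (-1.45, -1.65 to -1.27) and CD4 T-like cells (-0.55, -0.69 to -0.42) and higher in CD8 T-like cells (0.73, 0.53 to 0.92). LGALS1 was lower in Treg-like (-1.12, -1.44 to -0.84), CD4 T-like (-0.74, -0.98 to -0.52) and cytotoxic T-like cells (-0.63, -0.93 to -0.36), and CD8 T-like cells held 4 cord UMIs of it.

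**Figure D5:**
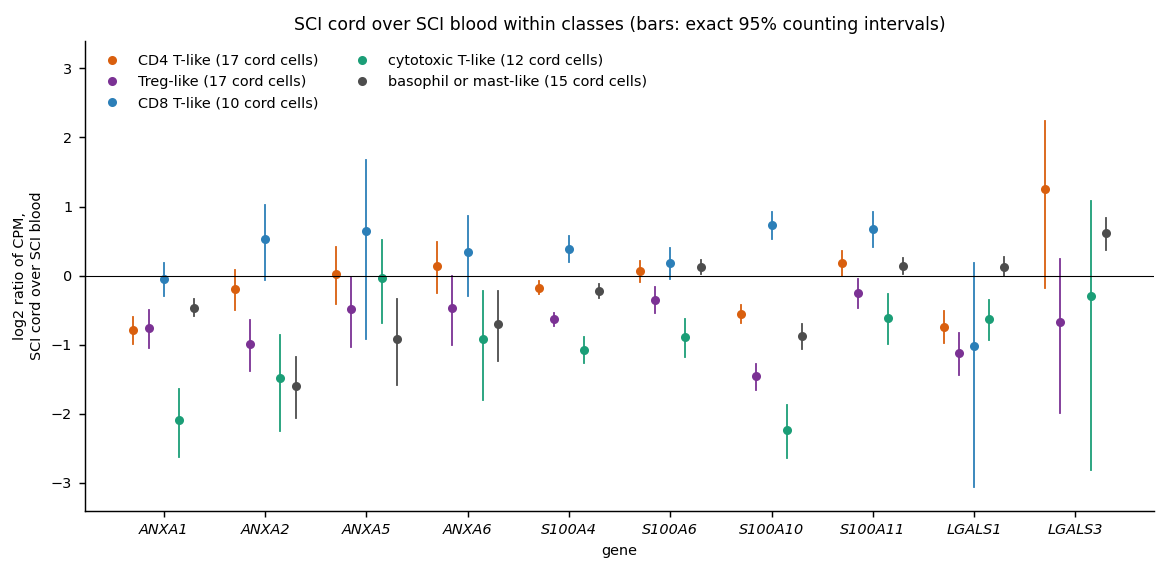
Log2 ratio of CPM of SCI cord over SCI blood (y axis) for each gene (x axis) in the 5 classes that had 10 or more cells in each of them, with exact 95% counting intervals and the number of cord cells in the key. S100A10 was above 0 in CD8 T-like cells (0.73) and below 0 in the other 4 classes.

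These cord values came with other shifts. In cord T-like cells 7 of 11 dissociation and early response genes were called higher, with a median of 1.53 and EGR1, an immediate early gene, at 5.51, while 8 of 10 naive T genes were called lower, with a median of -0.93. Over all genes, 21.7% were called higher and 15.2% lower there, with a median of 0.04. The 6 basophil or mast markers, all detected, summed to 825 CPM in the 17 cord Treg-like cells against 2.12 CPM in SCI blood, and were at 0 in cord CD4, CD8 and cytotoxic T-like cells. The part of dissociation, makeup and basophil or mast RNA in the cord values was not tested. By mean UMIs per cell, which leaves each library at its own depth, cord T-like cells were 0.93 above SCI blood for the median gene and S100A10 was at 0.04 in place of -0.85.

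The other genes of the 3 families were taken as whole lists. As background in all cells, 8.68% of all genes were higher and 8.51% lower in SCI than in naïve blood, with a median of 0.07. In SCI over sham blood 5.71% were higher and 6.88% lower (median 0.01), and in SCI cord over SCI blood 22.1% and 17.8% (median -0.01). Of 8 other annexins 5 were tested in all cells, and between SCI and naïve blood 0 were higher and 2, ANXA3 and ANXA9, were lower, with a median of -0.21. ANXA11 was at 245, 276, 271 and 309 CPM in naïve, sham, SCI blood and SCI cord, and ANXA4 was highest in B-like cells, at 533 CPM. Of 15 other S100 genes, among them S100PBP, a binding protein of S100P, 11 were tested between SCI and naïve blood, with 1 higher and 6 lower and a median of -0.79, and 10 were tested between SCI cord and SCI blood, with 7 higher and 2 lower and a median of 2.52. S100A3, at 32 and 3 UMIs, was the lowest of them in SCI over naïve blood (-3.18, -5.73 to -1.71), and S100A8 and S100A9, the calprotectin subunits of monocytes and neutrophils, were at -2.32 and -2.55 there and at 4.54 and 4.33 in SCI cord over SCI blood. S100A9 was at 1452, 1420, 249 and 5006 CPM in all cells and 34648 CPM in monocyte-like cells against 7.53 CPM in T-like cells. The part of the number of monocyte-like cells in these list values was not tested. Of 7 other galectins 6 were tested between SCI and sham blood, with LGALS4 higher and LGALS2, LGALS12 and LGALSL lower, and LGALS9, a ligand of TIM-3, was at 91.1, 100 and 68.6 CPM in T-like cells. Among T-like classes LGALS9 was lowest in CD8 T-like (40.0 CPM) and naive T-like cells (48.7 CPM), which were larger shares of SCI blood. The part of this makeup was not tested.

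Among 12 receptors and partners of these proteins, FPR1 and FPR2, formyl peptide receptors that bind annexin A1, were at 258 and 66.8 CPM in monocyte-like cells and at 0 and 0.0691 CPM in T-like cells, as medians over the blood libraries. In T-like cells 9 were tested, of which LGALS3BP, a secreted ligand of galectin-3, was the 1 called higher in SCI than in naïve blood, at 53.1, 65.4 and 81.2 CPM in naïve, sham and SCI blood (0.61), and HAVCR2, which encodes TIM-3, the 1 called lower (-0.98). CD7, a galectin-1 receptor, was the 1 called higher in SCI than in sham blood, at 232, 210 and 344 CPM (0.71), and it was highest in CD8 T-like cells. LGALS3BP was highest in naive T-like (111 CPM) and CD8 T-like cells (87.5 CPM), as medians over the blood libraries. Both classes were larger shares of SCI blood, and the part of this makeup in the T-like values was not tested. In cord T-like cells HAVCR2 and AGER, the receptor RAGE, were called higher and AHNAK and LGALS3BP lower. AHNAK, a scaffold bound by S100A10 and ANXA2, was at 1525 CPM in SCI blood and 706 CPM in SCI cord (-1.11), and HAVCR2 at 4.27 and 50.8 CPM (3.59) from 21 cord UMIs. Over all genes in T-like cells, 6.39% were called higher and 6.33% lower in SCI than in naïve blood. The shares were 6.32% and 5.04% for SCI over sham blood, and 21.7% and 15.2% for SCI cord over SCI blood. PTPRC (CD45) was at 2123 CPM in T-like cells.

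The memory T genes, 12 in all, had no member called in T-like cells of blood in any comparison, with medians of -0.09, -0.13 and -0.05 for sham over naïve, SCI over naïve and SCI over sham blood. Of 10 naive T genes, 0, 3 and 4 were called higher in the same comparisons and none lower, with medians of 0.04, 0.39 and 0.16, beside the larger share of naive T-like and CD8 T-like cells in SCI blood. Of 11 dissociation and early response genes, 3, 5 and 2 were called higher in T-like cells in these comparisons, with FOS at 0.86, 1.89 and 1.02, and their part in the blood differences was not tested. Over all genes, 3.25%, 6.39% and 6.32% were called higher and 4.91%, 6.33% and 5.04% lower in the same T-like comparisons. The medians over all genes were -0.03, -0.02 and 0.01.

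Over the 31 class means of the 3 blood libraries, the genes of this set most alike were S100A4 and S100A10 (Pearson r of 0.92 on log2 CPM), S100A6 and S100A11 (0.90), and ANXA2, ANXA5 and LGALS1 with each other (0.89 for each pair). ANXA6 was least like the rest, down to -0.25 with S100A6. Among 6745 other genes with enough signal, the nearest pattern was that of TIAM1 for ANXA1 (0.94), CAPN2 for S100A10 (0.95), CLIC1 for LGALS1 (0.93) and ARHGAP18 for LGALS3 (0.92). These are descriptions over points that share libraries, depth and cell classes.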

How the data were processed

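Human CD45+ cells of 3 blood libraries and 1 cord library were sequenced with 10x single cell 3' chemistry. The authors deposited raw UMI counts per gene and barcode, made with CellRanger 3.1.0 on a joint GRCh38 and mm10 reference (33538 human and 31053 mouse genes), and the values used here are those counts without normalisation. The files held 22830 barcodes, fewer than the transcriptomes the study states after its own filters, and 18106 of them had over 50% human UMIs. Per library, barcodes lying over 3 median absolute deviations (MADs) from the median were removed where they were too low in UMIs or genes (on a log scale) or too high in mitochondrial or ribosomal share, as were barcodes with over 3000 genes whose Scrublet score ranked among the highest, at a doublet rate of 0.8% per 1000 barcodes (none in cord). This left 17021 cells, with 29402676, 27695487, 31179110 and 1430777 human UMIs in naïve, sham, SCI blood and SCI cord.

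Cells were clustered in scanpy 1.11.5 (2000 variable genes without the 10 genes reported, 30 components, 15 neighbours, Leiden resolution 0.8), and clusters were named from marker lists. Counts were summed per library and class. Log2 ratios of CPM were taken after adding 0.5 to each count, for genes whose counts in the pair of libraries summed to 20 or more and classes of 10 or more cells, with exact conditional binomial intervals. Their coverage was checked on simulated Poisson counts. These follow the model that the intervals assume and hold no variation between cells, so the check covers the calculation only. Levels have exact Poisson and shares Clopper-Pearson intervals, and all of them cover counting error only. Shares were given thinned to 1000 UMIs per cell and unthinned. All 10 genes are named, and of each other list its counts, median and extremes. The genes and lists were chosen with earlier results of these data known. Alternatives covered scaling (edgeR 4.0.16 for TMM factors), the filters, thinning, clustering and class weights. Equal class weights gave a class the same weight in both libraries, its mean share of their cells, so that large classes counted more than small ones. Only classes with 10 or more cells in both libraries entered.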

Additional observations from a re-analysis of the deposited data

Results flagged for a closer look

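ANXA1, S100A10, S100A11 and LGALS3 differed by at least 1.5-fold between 2 libraries in opposite directions in different classes. These contrasts rest on 1 library per condition, and the difference between the classes was not tested. ANXA1 in sham over naïve blood had a log2 ratio of 0.69 in cytotoxic T-like and -1.82 in B-like cells, and in SCI over naïve blood 0.60 and -0.63. With all marked doublets removed, the B-like ratios were -0.71 and -0.53. S100A10 in SCI cord over SCI blood was 0.73 in CD8 T-like cells, against -1.45 in Treg-like, -0.88 in basophil or mast-like and -2.23 in cytotoxic T-like cells, and S100A11 was 0.68 in CD8 T-like and -0.61 in cytotoxic T-like cells, with 10 to 17 cord cells behind each. LGALS3 in SCI over naïve blood was 1.09 in basophil or mast-like cells, against -0.81 in B-like, -0.97 in Treg-like and -0.60 in cycling-like cells, and in SCI over sham blood 0.62 in basophil or mast-like and -0.76 in Treg-like cells. The B-like value of LGALS3 includes the cluster made up mostly of marked doublets. Host sex cannot be told apart from injury in the contrasts of SCI with naïve or sham blood.

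The mouse barcodes, which enter no comparison above, also held these genes. In the 92 mouse barcodes of SCI cord, mouse Lgals1 was at 711 CPM and Anxa5 at 348 CPM, above the mouse barcodes of naïve, sham and SCI blood, which were at 0.354, 102 and 45.6 CPM for Lgals1 and at 4.25, 93.3 and 58.0 CPM for Anxa5. The naïve values rest on 1 UMI of Lgals1 and 12 of Anxa5. Median depths were 26204 mouse UMIs in cord and 2045, 2018 and 1792 in naïve, sham and SCI blood. Host cell types were not matched between these barcodes, and their part in the difference was not tested.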

How the results depend on the processing

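Of 399 alternative values of summaries over the 10 genes, 341 stayed within the range set for them (the counting interval of a ratio, 1.5 times a count of genes) and 58 moved outside it. A reversal was counted only for ratios of at least 1.5-fold in the main setting, and none of these summaries had one. The medians over the 10 genes between libraries were all smaller than that, so a change of their sign was not counted. Some did change sign, such as SCI cord over SCI blood in all cells, at -0.09 in the main setting and above 0 at each library's own depth. Of 1120 for single genes, 772 stayed, 345 moved and 3 reversed. No paired analysis was possible because each condition had 1 library and no replicate, and no replicate was left to leave out. Removing shared barcodes and leaving out the cytotoxic T-like class were chosen after seeing the data.

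At each library's own depth (mean UMIs per cell), the median of all genes moved by up to 1.30 (SCI cord over SCI blood, all cells) and 0.93 (T-like), and the median over the 10 genes was 0.47 (1 gene higher), 0.064 (1 higher, 0 lower), -0.40 (2 lower) and 1.22 (9 higher, 0 lower) in all cells for sham over naïve, SCI over naïve, SCI over sham and SCI cord over SCI blood, and 0.44, 0.090, -0.30 and 0.64 (6 higher, 0 lower) in T-like cells. ANXA2 and S100A10 then reversed in all cord cells, to 0.68 and 0.57, and S100A10 in cord T-like cells, to 0.038. With equal class weights the all-cell medians were -0.10, -0.056 (0 lower), 0.10 (1 higher, 0 lower) and -0.24 (0 higher), and the T-like medians of SCI over naïve and over sham blood -0.027 and 0.10 (1 higher, 0 lower). With ribosomal and mitochondrial genes in the total, SCI over naïve blood was -0.11 and SCI over sham blood -0.21 in all cells, -0.29 and -0.16 in T-like cells, and 2 genes were higher and 1 lower in all cord cells. With TMM factors SCI over naïve blood was -0.064. As a mean of each cell's CPM, all cells gave 0.028 for sham over naïve and -0.13 for SCI over naïve blood (0 lower). Thinned, they gave 0.014 and -0.13, with 1 gene lower in all cord cells and 1 higher in cord T-like cells. Without the MAD filter, and without shared barcodes, 2 genes were higher in all cord cells. Without cytotoxic T-like cells the cord T-like median was -0.16.

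LGALS3 in T-like cells ran from -1.38 to -0.61 for SCI over naïve blood over 16 alternatives, past 1.5-fold in each, and from -1.33 to -0.42 for SCI over sham blood, short of 1.5-fold only with equal weights. In all cells it ran from -0.71 to -0.21 and from -1.05 to -0.10. ANXA1 in cord T-like cells ran from -1.11 to -0.13.

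Among class contrasts, monocyte-like over T-like cells was 0.89 and 1.07 in naïve and sham blood with the 10 genes kept for clustering and 0.97, 1.14 and 1.22 in naïve, sham and SCI blood with ribosomal and mitochondrial genes in the total. B-like over T-like cells was -0.66 in naïve blood at resolution 1.5, -0.70 and -0.92 in naïve and SCI blood with the 10 genes kept, and -1.25, -1.61 and -1.45 at 90% human UMIs. Cytotoxic over naive T-like cells was 1.52 and 1.09 in sham and SCI blood with ribosomal and mitochondrial genes. Some of these settings name clusters differently, and the cause was not tested. Depth limits LGALS3 in naive and CD8 T-like cells, and cord classes of 10 to 17 cells limit all cord values.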
